A study of Mus musculus with 51 samples.

Results

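The classical cadherins described here were 6 mouse genes, Cdh1, Cdh2, Cdh3, Cdh5, Cdh11 and Cdh13, measured on Affymetrix mouse expression arrays. Members were the probe sets that the platform annotation gives solely to one of these genes. They came to 13 of the 45101 probe sets on the array, 34945 of which carried a single gene symbol for 18193 genes in all. Cdh1 had 1 probe set, Cdh2, Cdh3, Cdh5 and Cdh11 had 2 each, and Cdh13 had 4.

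Cadherins are calcium-dependent adhesion receptors that bind the same or related cadherins on neighbouring cells, and their cytoplasmic tails recruit beta-catenin, p120-catenin and, through alpha-catenin, the actin cytoskeleton. Type I members are E-cadherin (Cdh1) of epithelia, N-cadherin (Cdh2) of neural, mesenchymal and pancreatic islet cells, and P-cadherin (Cdh3). VE-cadherin (Cdh5) of endothelium and cadherin 11 (Cdh11) of mesenchyme belong to the type II branch, and T-cadherin (Cdh13) is an atypical member that is held by a lipid anchor, lacks a catenin-binding tail and binds adiponectin. Cdh2 has earlier been linked to the chromatin protein HMGN1.

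The study asked how HMGN proteins, nucleosome-binding proteins of chromatin, affect transcription, with 51 arrays in 17 groups of 3. Primary mouse embryonic fibroblasts (MEFs) of strain C57BL/6 carried an HMGN1, HMGN3 or HMGN5 knock out, and each knock out had its own WT group. SV40-transformed MEFs, a line from the ATCC, expressed HMGN1, HMGN2, HMGN3a, HMGN5, HMGN5SE, HMGN1_N2swap or HMGN1_N3swap, or carried the empty vector, and MIN6 cells, a mouse insulinoma line, expressed HMGN1 or HMGN3a or carried the empty vector. The labels of all groups, primary MEFs included, describe retroviral infection with polybrene, 7 days of selection in puromycin at 1 µg/ml and 24 h without it before RNA collection. Infected cells were taken as pools and not as clones. The labels do not say what the SE and swap constructs change, nor whether the 3 replicates of a group were separate cultures, so p-values measure the spread between these samples, which may be technical.

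All levels are log2 RMA intensities. A group mean counted as expressed above a floor, the percentile 40 of the group means in its cell type, which was 1.99 for primary MEFs, 3.63 for SV40 MEFs and 5.13 for MIN6. Median intensities of the arrays were 5.47 to 5.93 (primary), 18.7 to 19.6 (SV40) and 55.5 to 57.6 (MIN6), so no level is set against one of another cell type or another probe set. The targeted transcript was lower in 2 of the 3 knock outs. Hmgn1 (probe set 1422495_a_at) read 10.09, 9.91 and 9.97 in the HMGN1 knock out, against 10.89, 10.88 and 10.85 in HMGN1 WT, and Hmgn3 (1434875_a_at) read 6.22, 6.27 and 6.25 in the HMGN3 knock out, against 7.48, 7.59 and 7.57 in HMGN3 WT. Hmgn5 (1418152_at) read 5.84, 5.63 and 5.59 on the arrays labelled HMGN5 knock out, against 5.21, 4.89 and 4.80 in HMGN5 WT, which goes against the label. In the pools not every introduced construct was seen on its Hmgn probe set. Hmgn1 read 11.87 to 11.91 in SV40 MEFs with HMGN1 OE, against 11.88 to 11.90 with vector, Hmgn5 read 7.59 to 7.64 with HMGN5 OE, against 8.47 to 8.69 with vector, and Hmgn3 read 11.55 to 11.64 in MIN6 with HMGN3a OE, against 11.30 to 11.44 with vector. Fibroblast markers were above the floor for 11 of 11 genes in the primary cells, for 10 in at least 1 group of the SV40 line and for 3 in MIN6. All 7 measured beta cell markers were above it in MIN6. In at least 1 group, 3 of the 7 were also above it in primary MEFs and 3 in SV40 MEFs, Ins2 and Nkx6-1 in both. A mean above the floor thus need not mark expression of the gene.

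The cadherins above the floor differed between MIN6 and the MEFs. Cdh2 and Cdh3 were above the floor in all 17 groups. Cdh1 was read only in MIN6, Cdh13 only in the MEFs, and Cdh11 in all primary MEF groups and 6 of the 8 SV40 groups. Cdh5 was below the floor in every group with both probe sets. In bulk RNA, fewer cells expressing a gene and less RNA per cell cannot be told apart.

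**Figure D1:**
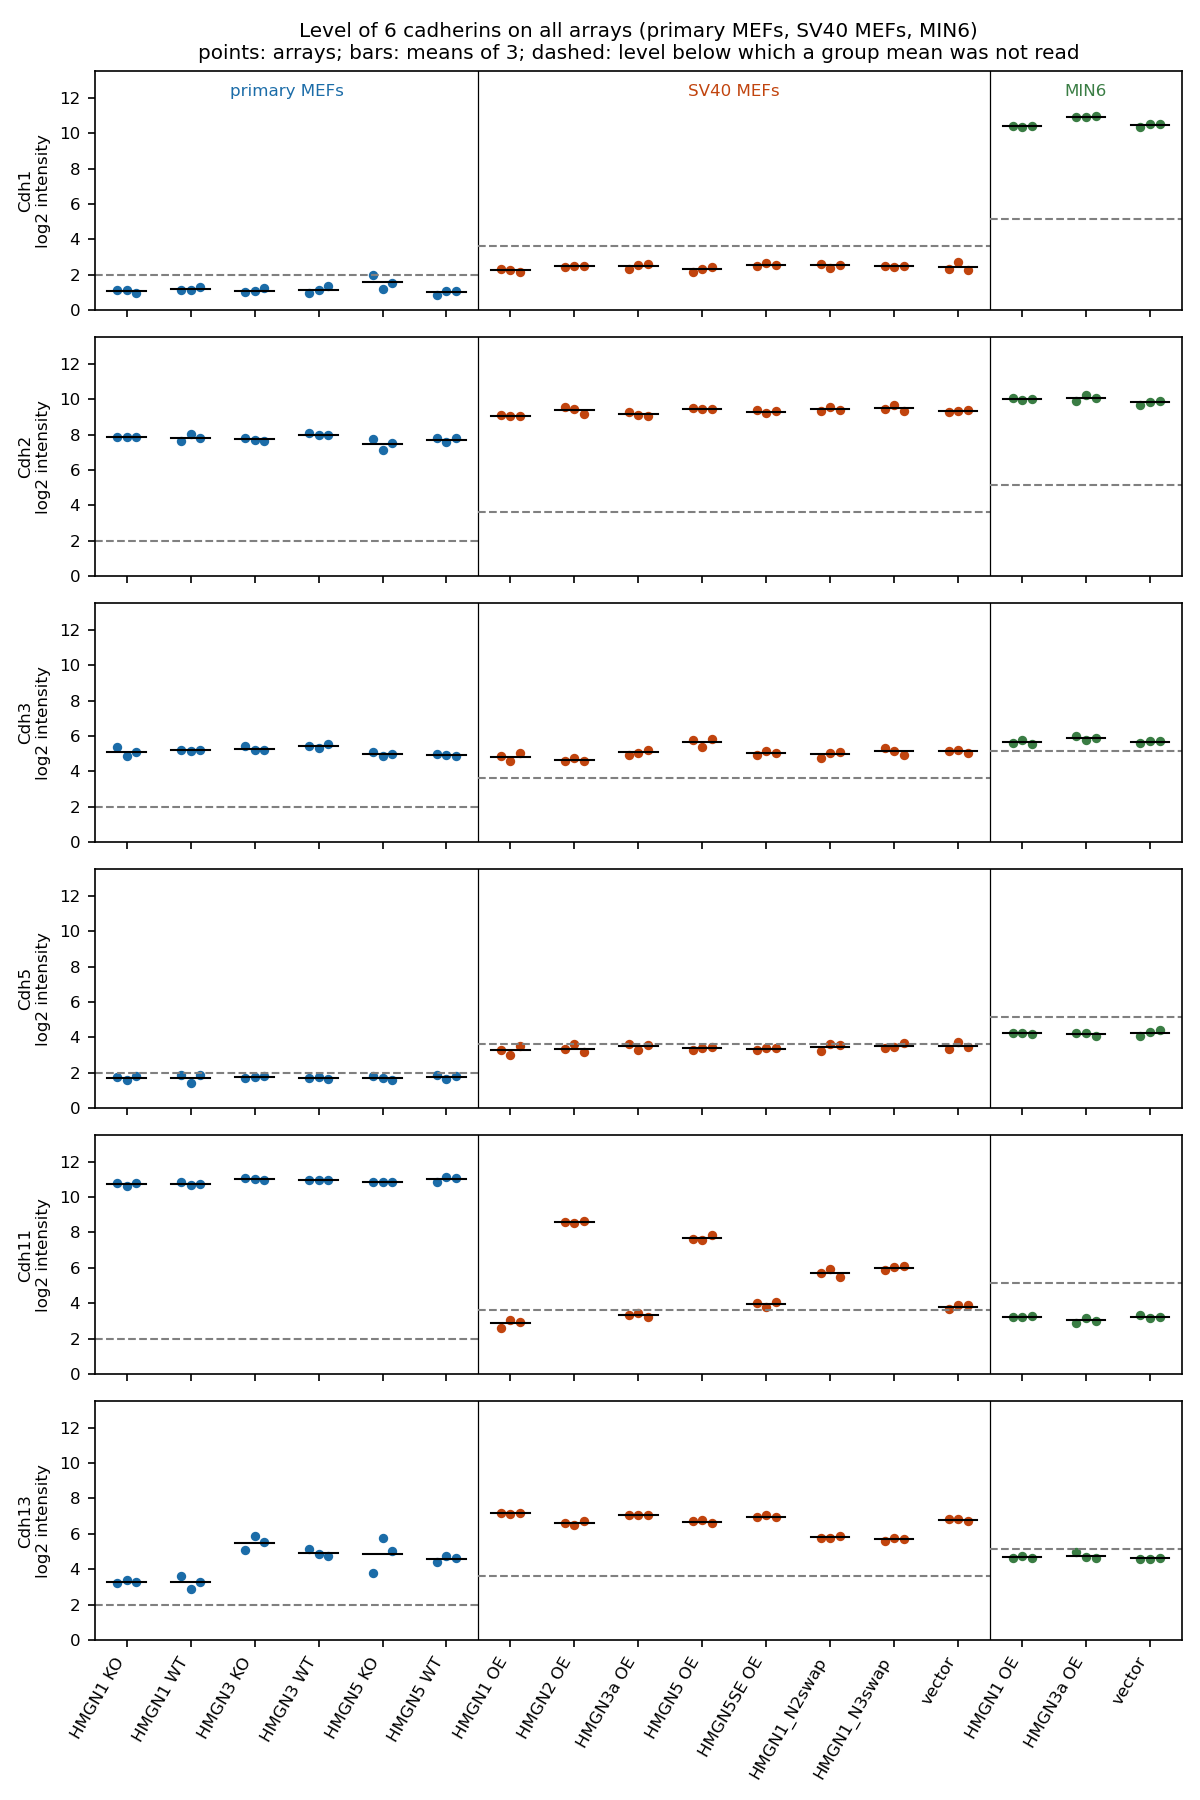
Log2 intensity (y axis) of the 6 cadherins on 51 arrays in 17 groups (x axis); points are arrays, black bars means of 3, dashed lines the floor of each cell type, and each panel shows 1 probe set per cell type. Cdh11 stayed between 10.65 and 11.15 on the primary MEF arrays and ran from 2.62 to 8.65 on the SV40 arrays, and group means of Cdh1 were above the floor in MIN6 only.

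No cadherin passed the test in a knock out. With limma, on adjusted p below 0.05 over all genes, 0 of 4 tested members were called in the HMGN1 knock out against HMGN1 WT, where 0.439% of 13674 genes were called. In the HMGN3 knock out it was 0 of 4, against 0.585% of genes. On the arrays labelled HMGN5 knock out it was also 0 of 4, against 0.0731% of genes. At an unadjusted p below 0.05 the members counted 0 (15.5% of genes), 1 (Cdh2, where 8.47% of genes did) and 1 (Cdh11, where 5.59% of genes did) in limma. The members' median difference was 0.02, -0.06 and -0.05 in the 3 knock outs, beside -0.02, -0.01 and 0.00 over all genes. In the HMGN3 knock out Cdh2 and Cdh11 did not overlap between groups (2 of 4), as for 15.9% of all genes.

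In SV40 MEFs, Cdh2, Cdh3, Cdh11 and Cdh13 were tested against vector in 7 pools that share the same 3 vector arrays. With HMGN1 OE 3 of 4 were called, where 29.4% of 13469 genes were. With HMGN2 OE 3 of 4 were called, against 44.3% of genes. HMGN5 OE gave 2 of 4 (41.5% of genes), HMGN1_N2swap 2 of 4 (37% of genes) and HMGN1_N3swap 2 of 4 (37.3% of genes). HMGN3a OE gave 0 of 4 in limma, where 0.0297% of genes (4 genes) were called, with 2 of 4 at an unadjusted p below 0.05 (10.9% of genes). HMGN5SE OE gave 0 of 4 in limma, where 0.0148% of genes (2 genes) were called, with 1 of 4 at an unadjusted p below 0.05 (5.23% of genes). The members' median difference in the 7 pools was -0.27, -0.06, 0.32, -0.03, 0.08, -0.12 and 0.06 in this order, and that over all genes lay between -0.06 and 0.01.

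In MIN6, Cdh1, Cdh2 and Cdh3 were tested. With HMGN1 OE against vector 0 of 3 were called in limma, also 0 at an unadjusted p below 0.05 (17% of genes), where 1.15% of 13179 genes were called. With HMGN3a OE against vector 2 of 3 were called, Cdh1 and Cdh3, where 34.1% of genes were. The members' median was -0.03 with HMGN1 OE and 0.25 with HMGN3a OE, beside -0.01 and 0.01 over all genes.

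**Figure D2:**
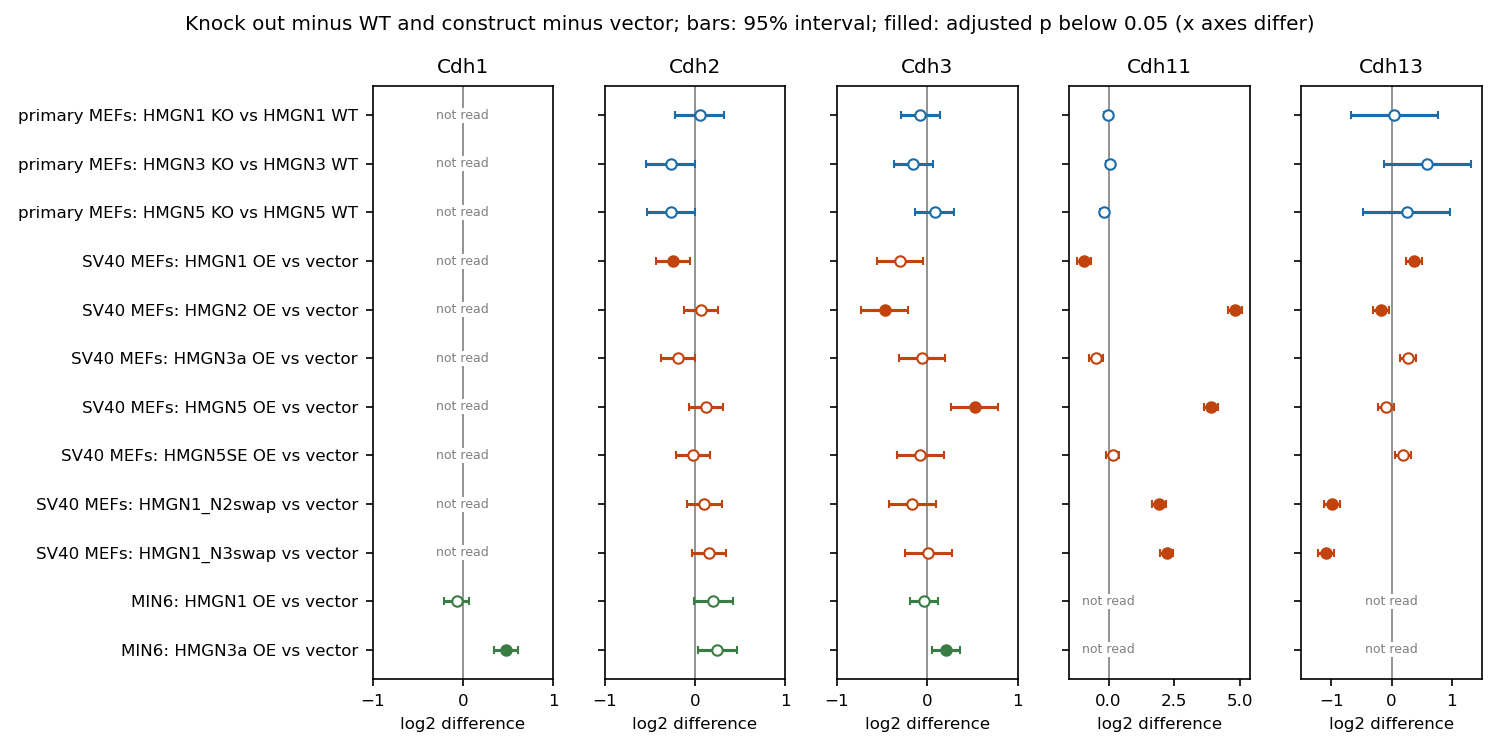
Log2 difference (x axis, scales differ between panels) of the 5 cadherins above the floor in each knock out minus WT and each construct minus vector (rows). Points are limma estimates with 95% intervals, filled where the adjusted p was below 0.05, and "not read" marks a cell type in which the gene was below the floor; Cdh11 reached 4.79 with HMGN2 OE and 3.90 with HMGN5 OE.

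Cdh1, E-cadherin, was among the brighter genes of MIN6, where its group means lay at the 94.4 to 96.6 percentiles of all probe sets. It read 10.90, 10.95 and 10.97 with HMGN3a OE, against 10.34, 10.53 and 10.51 with vector. All 3 HMGN3a arrays lay above all vector arrays, and 44.8% of all genes did not overlap between these groups. The rise was 0.48 ± 0.06 (SE, limma adjusted p = 0.000218), or 1.39-fold. With HMGN1 OE it read 10.41, 10.37 and 10.39, within the range of the vector arrays, and the difference was -0.07 with a 95% interval of -0.21 to 0.07. In both kinds of MEF Cdh1 was below the floor, at percentiles of 8.76 to 27.9 (primary) and 11.4 to 17.3 (SV40). Among the primary groups the brightest was the one labelled HMGN5 knock out, with 2.02, 1.22 and 1.56, only the first of which lay above 1.99.

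Markers of epithelium moved with Cdh1 in MIN6. Their summed linear intensity over 13 genes, of which Cldn4 and Krt19 were below the floor in every group, was 12362 to 12531 with HMGN3a OE, against 8147 to 8754 with vector. With HMGN1 OE it was 7963 to 8391, against the same vector arrays. Of 11 tested, 7 rose and 0 fell with HMGN3a OE, among them the claudin Cldn7 (2.03 ± 0.09, limma adjusted p = 1.29e-07), the adhesion molecule Epcam (1.07 ± 0.09) and the tight junction gene Marveld2 (0.55 ± 0.13). The list's median was 0.42, beside 0.01 over all genes, of which 34.1% were called. The part of these markers in the rise of Cdh1 was not tested.

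Cdh2, N-cadherin, was steady by comparison. Its brighter probe set (1418815_at) had group means at the 91.2 to 94.9 percentiles across all 17 groups, and they spanned 0.55 (primary), 0.40 (SV40) and 0.25 (MIN6). Its values in the HMGN1 pairs come first, since it has been linked to that protein. Cdh2 read 7.88, 7.88 and 7.89 in the HMGN1 knock out, against 7.66, 8.05 and 7.80 in HMGN1 WT. The knock out arrays lay inside the WT range, and the difference was 0.05 ± 0.13 with a 95% interval of -0.22 to 0.32 (limma adjusted p = 0.885).

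With HMGN1 OE in SV40 MEFs Cdh2 read 9.13, 9.07 and 9.03, against 9.28, 9.33 and 9.36 with vector. The groups did not overlap, as for 49.4% of all genes, and Cdh2 fell by 0.25 ± 0.09 on the log2 scale (limma adjusted p = 0.0469). This call rested on every array: leaving out any 1 of the 6 gave adjusted p between 0.0658 and 0.129. The second probe set, 1449244_at, differed by -0.13 ± 0.08 (limma adjusted p = 0.274 with every probe set tested on its own). In MIN6 with HMGN1 OE, Cdh2 read 10.07, 9.98 and 10.01, against 9.66, 9.87 and 9.92 with vector. All 3 HMGN1 arrays were above the vector arrays, as for 24.7% of all genes, but the difference of 0.20 ± 0.10 was not called (limma adjusted p = 0.318), and the second probe set gave -0.12 ± 0.09. The effect of HMGN1 OE on Cdh2 was 0.45 ± 0.14 larger in MIN6 than in SV40 MEFs (limma adjusted p = 0.0187 for the difference of effects), but 0.00 on the second probe set. In that test of differing effects 3 of 5 members were called, where 20.7% of 14454 genes were, and in the same test for HMGN3a OE 2 of 5, where 19.8% were. These counts are not over members read in both lines: Cdh11 and Cdh13 were below the floor in MIN6 and Cdh1 in SV40 MEFs, so of the called members only Cdh2 had an effect measured on both sides.

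Cdh2 also read lower in the HMGN3 knock out, at 7.84, 7.71 and 7.65, against 8.07, 7.97 and 7.95 in HMGN3 WT. The groups did not overlap, as for 15.9% of all genes, yet the difference of -0.27 ± 0.13 was not called (limma adjusted p = 0.588). On the arrays labelled HMGN5 knock out it read 7.73, 7.11 and 7.51, against 7.78, 7.57 and 7.79 in HMGN5 WT. These overlapped, with a difference of -0.26 ± 0.13 and an adjusted p of 0.903. With HMGN3a OE the difference was -0.19 ± 0.09 in SV40 MEFs (adjusted p = 0.475) and 0.25 ± 0.10 in MIN6 (adjusted p = 0.0768). The second probe set gave 0.08 ± 0.08 in SV40 MEFs with HMGN3a OE, the other sign, and 0.33 ± 0.09 in MIN6 (limma adjusted p = 0.0215 with every probe set tested on its own). In the other 5 pools against vector the difference of Cdh2 lay between -0.02 and 0.16 and none passed, although the second probe set rose by 0.25 ± 0.08 with HMGN2 OE (adjusted p = 0.0158).

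Cdh3, P-cadherin, was of middling level, at percentiles of 73.3 to 77.9 (primary), 55.3 to 65.8 (SV40) and 47.7 to 51.0 (MIN6). Its second probe set, 1441255_at, was below the floor in all 17 groups. In SV40 MEFs with HMGN5 OE Cdh3 read 5.76, 5.37 and 5.82, against 5.14, 5.22 and 5.03 with vector, and it rose by 0.52 ± 0.12 (limma adjusted p = 0.00159). With HMGN2 OE it read 4.60, 4.76 and 4.60, against the same vector arrays, and it fell by 0.47 ± 0.12 on the log2 scale (adjusted p = 0.00415). Neither group overlapped the vector arrays, as for 56.2% (HMGN5 OE) and 56.4% (HMGN2 OE) of all genes. The 2 pools lay on opposite sides of vector for Cdh3, while Cdh11 was higher in both.

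Cdh3 was not called in the other 5 SV40 pools. It read 4.84, 4.60 and 5.03 with HMGN1 OE, with a difference of -0.30 ± 0.12 (limma adjusted p = 0.0743), and without HMGN1 OE replicate 3 this became -0.41 (adjusted p = 0.0329). With HMGN3a OE in MIN6 Cdh3 read 5.98, 5.78 and 5.90, against 5.62, 5.71 and 5.71 with vector. The groups did not overlap, as for 44.8% of all genes, and Cdh3 rose by 0.21 ± 0.07 (limma adjusted p = 0.0415). That call was lost without any 1 of the vector replicates 1, 2 and 3 or of HMGN3a OE replicates 1 and 3 (adjusted p of 0.0685 to 0.129). In the 3 knock outs the differences of Cdh3 were -0.08, -0.15 and 0.08, each with an SE of 0.10.

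Cdh5, VE-cadherin, was not read anywhere. Its probe set 1422047_at gave 1.39 to 1.87 on the primary arrays, 3.00 to 3.75 on those of the SV40 line and 3.60 to 3.87 on the MIN6 arrays. Single SV40 arrays passed 3.63, but no group mean did. The endothelial genes Pecam1, Tek, Tie1 and Robo4 were below the floor in all 3 cell types too, while Flt1, Kdr, Cldn5, Esam and Sox17 were above it in each of them.

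Cdh11, cadherin 11, was the member with the widest range. In primary MEFs its probe set 1450757_at stood at the 99.3 to 99.4 percentiles in every group, and group means spanned only 0.28. It read 10.81, 10.65 and 10.80 in the HMGN1 knock out, against 10.86, 10.70 and 10.74 in HMGN1 WT, and the difference was -0.01 ± 0.07. It read 11.06, 10.99 and 10.99 in the HMGN3 knock out, against 10.96, 10.97 and 10.99 in HMGN3 WT. The lowest knock out array was just above the highest WT array, and the difference was 0.04 ± 0.07. On the arrays labelled HMGN5 knock out it read 10.88, 10.85 and 10.83, against 10.87, 11.15 and 11.06 in HMGN5 WT, and the difference of -0.18 ± 0.07 was not called (limma adjusted p = 0.751).

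In SV40 MEFs with the empty vector Cdh11 was close to the floor, at the 42.8 percentile, and the pools fell on both sides. It read 8.59, 8.53 and 8.65 with HMGN2 OE, against 3.66, 3.88 and 3.88 with vector. The rise of 4.79 ± 0.12 (limma adjusted p = 4.57e-17), or 27.6-fold, was larger than that of any other of the 13469 genes. With HMGN5 OE Cdh11 read 7.66, 7.57 and 7.87, a rise of 3.90 ± 0.12 (adjusted p = 7.41e-17), or 14.9-fold, and rank 29 by size. The HMGN2 arrays all lay above the HMGN5 arrays, and both groups lay far above vector.

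The swap constructs gave middle levels. Cdh11 read 5.73, 5.96 and 5.47 with HMGN1_N2swap, against the same vector values. It rose by 1.91 ± 0.12 (limma adjusted p = 1.55e-10), or 3.77-fold. With HMGN1_N3swap it read 5.86, 6.07 and 6.10, and it rose by 2.20 ± 0.12 (adjusted p = 1.5e-11), or 4.61-fold. The swap groups overlapped each other and no other group. When the probe sets of a gene were averaged these rises became 1.00 and 1.29, those with HMGN2 OE and HMGN5 OE became 3.45 and 2.34, and all 4 remained called.

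The HMGN1 OE pool lay on the other side of vector. With HMGN1 OE Cdh11 read 2.62, 3.07 and 2.96, all below the floor of 3.63, so that the fall of 0.92 ± 0.12 (limma adjusted p = 8.5e-06) is given as a drop of at least 0.17 on the log2 scale below vector. With HMGN3a OE it read 3.31, 3.48 and 3.23, below the floor and below all 3 vector arrays, where 20% of all genes did not overlap vector. The Cdh11 difference of -0.47 ± 0.12 was not called (limma adjusted p = 0.199). HMGN5SE OE left it at 4.01, 3.77 and 4.09, overlapping vector, with a difference of 0.15 and a 95% interval of -0.11 to 0.41. Ordered by mean, the groups ran HMGN2 OE, HMGN5 OE, HMGN1_N3swap, HMGN1_N2swap, HMGN5SE OE, vector, HMGN3a OE and HMGN1 OE, and only the swaps overlapped each other and HMGN5SE OE the vector.

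The second Cdh11 probe set, 1435120_at, was dimmer. It read 3.94, 4.39 and 4.54 with HMGN2 OE, against 2.05, 2.34 and 2.16 with vector, and HMGN2 OE was the only SV40 group above the floor. The rise was 2.11 ± 0.17 (limma adjusted p = 3.61e-09 with every probe set tested on its own). With HMGN5 OE the difference was 0.79 ± 0.17 (adjusted p = 0.000783) between groups that were both below the floor. The swaps gave 0.09 and 0.38 and neither was called, so that on this probe set their rise was not seen. In primary MEFs both probe sets were bright, the second at the 90.4 to 92.8 percentiles.

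**Figure D3:**
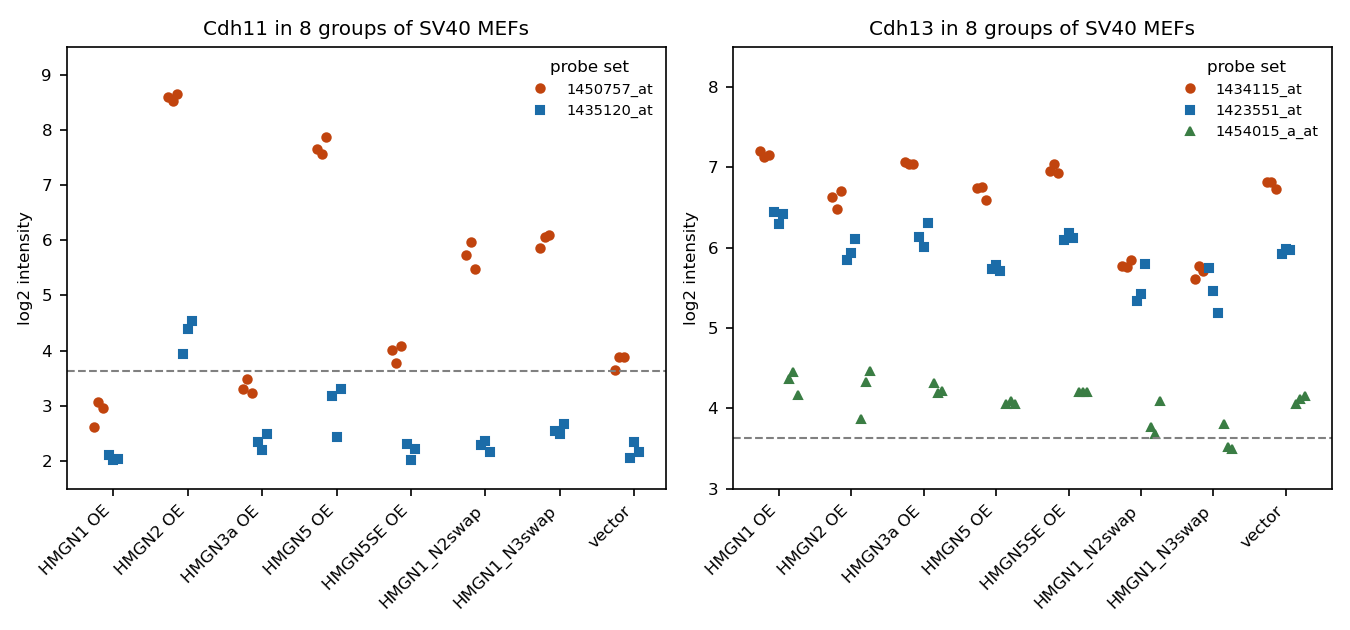
Log2 intensity (y axis) of the Cdh11 and Cdh13 probe sets that were above the floor (dashed, 3.63) in any of the 8 SV40 MEF groups (x axis), 3 arrays a group. For Cdh11 the brighter probe set reached 8.65 with HMGN2 OE and the second passed the floor in that group alone; for Cdh13 the brightest probe set lay lowest in both swap groups, between 5.61 and 5.85.

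The constructs were also set against each other. In HMGN2 OE against HMGN1 OE 3 of 4 members were called, where 41.1% of genes were, and Cdh11 was at least 4.96 higher (5.71 ± 0.12 as measured, limma adjusted p = 2.76e-19). In HMGN1_N2swap against HMGN1 OE 3 of 4 were called (46.1% of genes) and Cdh11 was at least 2.09 higher. In HMGN1_N2swap against HMGN2 OE 3 of 4 were called (50.2% of genes) and Cdh11 differed by -2.87 ± 0.12 (adjusted p = 8.58e-14). HMGN1_N3swap against HMGN1 OE gave 4 of 4 (50.9% of genes), with Cdh11 at least 2.38 higher. HMGN1_N3swap against HMGN3a OE gave 3 of 4 (42.5% of genes), again with Cdh11 at least 2.38 higher. In HMGN5SE OE against HMGN5 OE 3 of 4 were called (42% of genes) and Cdh11 differed by -3.74 ± 0.12 (adjusted p = 1.48e-16), or 13.4-fold.

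The other members moved less between constructs. Cdh2 was higher than with HMGN1 OE in the HMGN2 OE pool (0.31 ± 0.09, limma adjusted p = 0.0089), in HMGN1_N2swap (0.35 ± 0.09, adjusted p = 0.00355) and in HMGN1_N3swap (0.40 ± 0.09, adjusted p = 0.000997). It was also higher in HMGN1_N3swap than with HMGN3a OE (0.34 ± 0.09, adjusted p = 0.00442). The second Cdh2 probe set passed the first of these contrasts (0.38 ± 0.08) and not the swap contrasts, at 0.18, 0.14 and -0.07. Cdh3 was lower in HMGN5SE OE than in HMGN5 OE (-0.60 ± 0.12, adjusted p = 0.000443). It was slightly higher in HMGN1_N2swap than in HMGN2 OE (0.31 ± 0.12, adjusted p = 0.0454) and in HMGN1_N3swap than in HMGN1 OE (0.31 ± 0.12, adjusted p = 0.0425), and both calls were lost without single arrays.

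The Actb signal at the 3' and 5' ends, the only trace of RNA quality or labelling read here, differed between these pools. The 3' minus 5' difference of the Actb probe sets was 0.394 to 0.789 in the swap groups, against 0.233 to 0.290 with vector, and 0.00720 to 0.196 in HMGN2 OE. With that difference as a covariate, the swap contrasts of Cdh2 against HMGN1 OE and HMGN3a OE were no longer called (limma adjusted p = 0.248, 0.0832 and 0.387). They became 0.18 ± 0.12, 0.25 ± 0.11 and 0.15 ± 0.13. Cdh3 in HMGN1_N2swap against HMGN2 OE was not called either (0.56, adjusted p = 0.0694), whereas the swap contrasts of Cdh11 and Cdh13 were. The swap arrays did not overlap those of vector, HMGN1 OE, HMGN2 OE or HMGN3a OE in this covariate, so it was close to a group label. Xist, the RNA of the inactive X chromosome, also stood apart (1427262_at): it read 6.24 to 6.84 in HMGN2 OE and 4.69 to 6.33 in the swaps, against 3.07 to 3.52 with vector. HMGN5 OE, where Cdh11 was high too, had Xist at 2.60 to 2.68. The part of either in the member values was not tested beyond this covariate.

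Cdh13, T-cadherin, was measured in SV40 MEFs on 1434115_at. It read 5.77, 5.76 and 5.85 with HMGN1_N2swap, against 6.81, 6.82 and 6.73 with vector, and it fell by 0.99 ± 0.06 on the log2 scale (limma adjusted p = 1.44e-10). With HMGN1_N3swap it read 5.61, 5.77 and 5.71, and it fell by 1.09 ± 0.06 on the log2 scale (adjusted p = 2.99e-11). These are drops of 1.99-fold and 2.12-fold, and both groups lay below every other SV40 array. When the probe sets of Cdh13 were averaged the differences became -0.56 and -0.70, and both remained called. So Cdh13 was lower in the pools in which Cdh11 had its middle levels.

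In the HMGN1 OE pool the sign was the opposite. Cdh13 read 7.20, 7.12 and 7.16 with HMGN1 OE, above all vector arrays, where 49.4% of all genes did not overlap vector. It rose by 0.38 ± 0.06 (limma adjusted p = 0.000124). HMGN3a OE (7.07, 7.04 and 7.04) and HMGN5SE OE (6.95, 7.04 and 6.94) also lay above all vector arrays, where 20% and 15.3% of all genes did not overlap vector. The Cdh13 differences of 0.26 ± 0.06 and 0.19 ± 0.06 were not called (limma adjusted p = 0.158 and 0.746). With HMGN2 OE it read 6.63, 6.49 and 6.71, a fall of 0.18 ± 0.06 on the log2 scale (adjusted p = 0.0295) that was absent when probe sets were averaged (-0.02) and lost without vector replicate 1 or 2 or HMGN2 OE replicate 2. HMGN5 OE gave -0.09 ± 0.06.

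Against HMGN1 OE, Cdh13 differed by -1.37 ± 0.06 in HMGN1_N2swap (limma adjusted p = 1.39e-13) and by -1.46 ± 0.06 in HMGN1_N3swap (adjusted p = 4.2e-14). It was also lower in HMGN1_N2swap than in HMGN2 OE (-0.81 ± 0.06) and lower in HMGN1_N3swap than in HMGN3a OE (-1.35 ± 0.06). HMGN2 OE lay below HMGN1 OE (-0.55 ± 0.06), and HMGN5SE OE lay above HMGN5 OE (0.28 ± 0.06, adjusted p = 0.000985). A second probe set, 1423551_at, gave -0.44 ± 0.12 and -0.50 ± 0.12 in HMGN1_N2swap and HMGN1_N3swap against vector (adjusted p = 0.00655 and 0.00278 with every probe set tested on its own). Probe set 1454015_a_at gave -0.26 and -0.50, and only the value with HMGN1_N3swap passed (adjusted p = 0.00323). The remaining probe set, 1431824_at, was below the floor in every group.

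In primary MEFs Cdh13 was the least even member. On 1423551_at it read 3.22, 3.38 and 3.29 in the HMGN1 knock out, against 3.61, 2.87 and 3.29 in HMGN1 WT. It read 5.08, 5.85 and 5.55 in the HMGN3 knock out, against 5.12, 4.85 and 4.73 in HMGN3 WT. It read 3.81, 5.76 and 5.01 on the arrays labelled HMGN5 knock out, against 4.43, 4.77 and 4.62 in HMGN5 WT. On this probe set no pair was separate, and the labelled HMGN5 knock out arrays had an SD of 0.98. The differences were 0.04, 0.59 and 0.25 in this order, each with an SE of 0.34. The 95% intervals, -0.68 to 0.77, -0.13 to 1.32 and -0.47 to 0.98, include a rise of 1.5-fold in each pair. On 1434115_at the HMGN3 knock out arrays lay above all HMGN3 WT arrays (means 5.52 and 4.88), where 15.9% of all genes did not overlap. The HMGN1 knock out mean was 3.01 on that probe set, against 3.37 in HMGN1 WT, with overlap.

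The WT cultures differed from each other. In HMGN3 WT, Cdh13 was 1.64 ± 0.34 above HMGN1 WT (limma adjusted p = 0.00198) and in HMGN5 WT 1.35 ± 0.34 above it (adjusted p = 0.017). On 1434115_at the first difference was called too (adjusted p = 0.00859 with every probe set tested on its own) and the second, 1.23 ± 0.38, was not (adjusted p = 0.0544). In the first of these contrasts 2 of 4 members were called, where 31.5% of genes were, and in the second 2 of 4, where 11.7% were. Cdh11 was the other one, 0.21 ± 0.07 and 0.26 ± 0.07 higher (adjusted p = 0.0303 and 0.0214), and its calls were lost without single arrays. In HMGN5 WT against HMGN3 WT 1 of 4 was called (17.2% of genes), Cdh3, which read 4.96, 4.92 and 4.88 in HMGN5 WT, against 5.44, 5.35 and 5.53 in HMGN3 WT. It fell by 0.52 ± 0.10 on the log2 scale there (adjusted p = 0.00216).

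Sex-linked RNA moved with these contrasts. The Y-linked gene Eif2s3y (1417210_at) read 6.28 to 6.50 in HMGN3 WT and 6.40 to 6.59 in HMGN5 WT, against 1.31 to 1.41 in HMGN1 WT. It was mixed in the HMGN1 knock out, at 5.85, 1.28 and 5.23, where Cdh13 hardly moved, and at 1.54, 6.50 and 5.38 on the arrays labelled HMGN5 knock out, where the array with the least Eif2s3y also had the least Cdh13. With Eif2s3y as a covariate Cdh13 differed by 0.72 ± 0.45 and 0.40 ± 0.46 in the first pair of WT contrasts. Neither difference was called (limma adjusted p = 0.311 and 0.722), and 0 members were called in either contrast. Eif2s3y did not overlap between these WT groups, so the covariate was close to a group label and cannot separate sex from culture. The part of sex in the level of Cdh13 was not tested. The call of Cdh13 in HMGN5 WT against HMGN1 WT was also lost without HMGN1 WT replicate 2 or 3 or HMGN5 WT replicate 2 or 3 (adjusted p of 0.0511 to 0.0756).

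**Figure D4:**
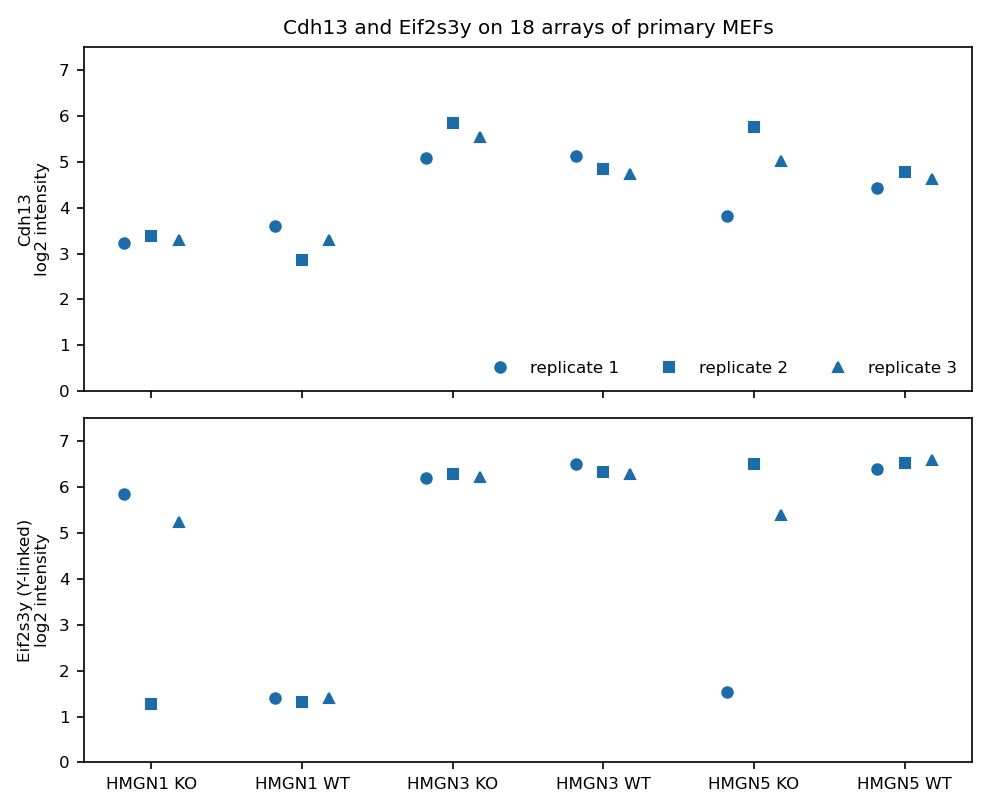
Log2 intensity (y axes) of Cdh13 (1423551_at, upper panel) and the Y-linked gene Eif2s3y (lower panel) on the 18 primary MEF arrays by group (x axis), with a symbol for each replicate number. HMGN1 knock out and HMGN1 WT arrays lay at 2.87 to 3.61 for Cdh13, with Eif2s3y mixed in the knock out and low in WT. The first array labelled HMGN5 knock out was low for both genes.

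Markers of other cell types differed between the WT cultures as well. For macrophages and leukocytes the summed linear intensity over 10 measured genes was 1163 to 1266 in HMGN3 WT and 567 to 1041 in HMGN5 WT, against 497 to 534 in HMGN1 WT. It ran from 384 to 1809 on the arrays labelled HMGN5 knock out, where Cdh13 also varied most. Of 9 tested, 5 were called higher and 0 lower in HMGN3 WT against HMGN1 WT, and Itgam was below the floor in all 6 groups. Neural crest and glia markers summed to 109 to 110 in HMGN3 WT and 192 to 198 in HMGN5 WT, against 276 to 298 in HMGN1 WT, with 0 of 7 tested called higher and 2 lower in HMGN3 WT, and 0 higher and 1 lower in HMGN5 WT. Endothelial markers summed to 153 to 163 in HMGN3 WT and 158 to 169 in HMGN5 WT, against 115 to 116 in HMGN1 WT, with 2 of 7 tested called higher in each and 1 and 0 lower, while Pecam1 and Tek were below the floor. Of all genes 31.5% were called in HMGN3 WT and 11.7% in HMGN5 WT, each against HMGN1 WT. The part of these markers in the level of Cdh13 or Cdh11 was not tested.

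The genes that act with cadherins were read from a list of catenins and linkers. In the 3 knock outs 0 of 17 tested passed in limma, and 1, 0 and 1 had an unadjusted p below 0.05. With HMGN2 OE in SV40 MEFs 3 of 14 rose and 3 fell, where 44.3% of all genes were called. Ctnnd1, p120-catenin, which holds cadherins at the surface, rose by 0.84 ± 0.14 (limma adjusted p = 4.48e-05), and the beta-catenin inhibitor Ctnnbip1 fell by 0.40 ± 0.11 on the log2 scale. With HMGN5 OE 5 of 14 rose and 3 fell, where 41.5% of all genes were called. The actin linker vinculin (Vcl) rose by 0.76 ± 0.06 and Ctnnd1 by 0.57 ± 0.14, while the adhesion receptor Nectin2 fell by 1.26 ± 0.06 on the log2 scale (adjusted p = 2.76e-13). Plakoglobin (Jup), a catenin shared by adherens junctions and desmosomes, fell by 0.68 ± 0.10 with HMGN1_N2swap and by 0.77 ± 0.10 with HMGN1_N3swap, on the log2 scale. In these pools the list gave 3 of 14 higher with 2 lower and 2 higher with 3 lower, beside 37% and 37.3% of all genes called. The list's median lay between -0.02 and 0.05 in all 7 pools, close to that of all genes.

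Regulators of Cdh1 or of epithelial-mesenchymal transition, most of them transcription factors, were read as a list. It mixes repressors and activators of Cdh1, so its counts and medians give no direction for Cdh1. The counts stand beside the 41.5% (HMGN5 OE), 44.3% (HMGN2 OE), 29.4% (HMGN1 OE) and 34.1% (HMGN3a OE in MIN6) of all genes called. With HMGN5 OE 7 of 13 rose and 3 fell (median 0.19), led by Twist2 (2.17 ± 0.06, limma adjusted p = 7.9e-18), Snai2, which represses Cdh1 (1.09 ± 0.10), and Zeb1 (0.98 ± 0.07). With HMGN2 OE 4 rose and 3 fell (median -0.03), with Prrx1 at 1.47 ± 0.08 and Twist2 at -0.42 ± 0.06. With HMGN1 OE 0 rose and 5 of 13 fell (median -0.07), among them Foxc2 (-0.75 ± 0.12), Snai2 (-0.74 ± 0.10) and Prrx1 (-0.56 ± 0.08). In MIN6 with HMGN3a OE, where Cdh1 was higher, 3 of 11 rose and 4 fell (median -0.14), with Zeb2 at -0.77 ± 0.12, Twist2 at -0.74 ± 0.11, Zeb1 at -0.57 ± 0.08 and Grhl2, an activator of Cdh1, at 0.35 ± 0.11.

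Fibroblast markers rose in the pools with the highest Cdh11. Their summed linear intensity over 11 genes, of which Lum was below the floor, was 26882 to 27555 with HMGN5 OE and 21974 to 23742 with HMGN2 OE, against 14450 to 14931 with vector. It was 15002 to 17828 with HMGN1_N2swap and 15620 to 16518 with HMGN1_N3swap. With HMGN2 OE 7 of 10 tested rose and 0 fell (44.3% of all genes called), and with HMGN5 OE 7 rose and 1 fell (41.5%). The collagen Col3a1 rose by 2.99 ± 0.12 and 4.16 ± 0.12 in these pools. With HMGN1 OE, where Cdh11 was below the floor, 1 rose and 2 fell (29.4% of all genes called), and Col3a1 rose by 1.89 ± 0.12 all the same. The part of these markers in the rise of Cdh11 was not tested.

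Proteases and signalling partners of cadherins were a list of 20 genes with 18 tested in SV40 MEFs. It gave 7 higher and 3 lower with HMGN2 OE (44.3% of all genes called) and 7 higher and 4 lower with HMGN5 OE (41.5%). Fgfr1, the growth factor receptor that N-cadherin binds, rose by 0.88 ± 0.09 and 0.87 ± 0.09 in these pools (limma adjusted p = 3.51e-08 and 2.14e-08), and in MIN6 with HMGN3a OE it fell by 0.77 ± 0.07 on the log2 scale. With HMGN1_N2swap 2 rose and 8 fell, where 37% of all genes were called. Adam15, a membrane protease that cleaves cadherins, fell there by 0.45 ± 0.08 on the log2 scale.

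Of the other cadherins of types I and II, 12 were measured, and 6 were above the floor in primary MEFs. In SV40 MEFs 5 were tested, and the muscle cadherin Cdh15 with HMGN1_N2swap (0.52 ± 0.14, limma adjusted p = 0.00474) was the only one called against vector in any pool. In MIN6 7 were above the floor. Of these, 0 rose and 3 fell with HMGN3a OE: Cdh6 differed by -1.54 ± 0.09 (adjusted p = 6.47e-07) and Cdh4, R-cadherin, by -0.35 ± 0.05, and Cdh7 fell to below the floor, by at least 1.53 on the log2 scale. With HMGN1 OE, where 0 of the 3 tested members were called, Cdh6 and Cdh7 fell by 0.61 ± 0.09 and 0.60 ± 0.09 on the log2 scale (adjusted p = 0.00893 and 0.0143). In HMGN3a cells Cdh1 and Cdh3 thus rose while Cdh4, Cdh6 and Cdh7 fell, where 34.1% of all genes were called. The call of Cdh1 was kept in 12 of 12 alternatives and that of Cdh3 in 3 of 12.

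**Figure D5:**
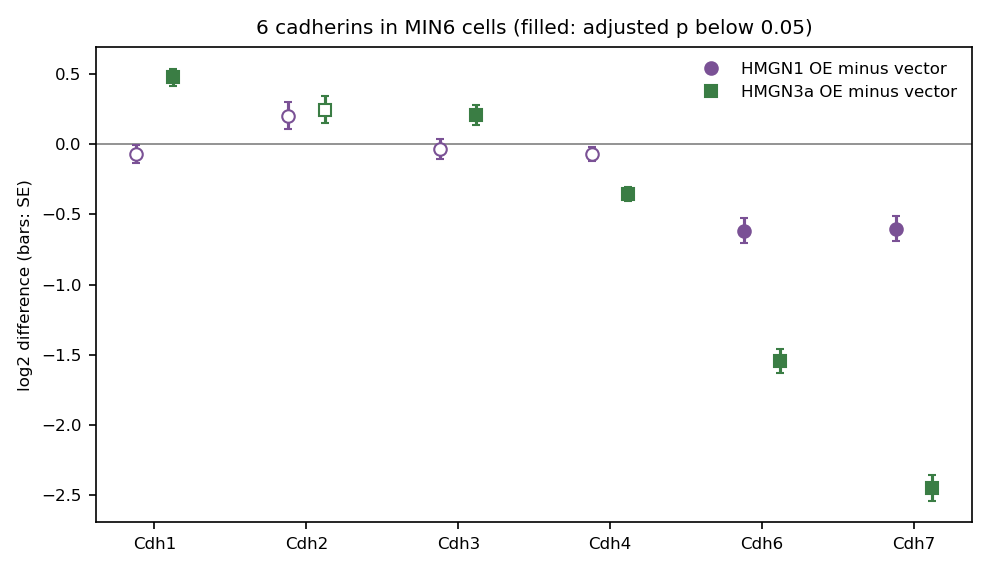
Log2 difference from vector (y axis, bars are SE) of 6 cadherins (x axis) in MIN6 with HMGN1 OE (circles) and HMGN3a OE (squares), filled where the limma adjusted p was below 0.05. With HMGN3a OE Cdh1 (0.48) and Cdh3 (0.21) were above 0 and Cdh4, Cdh6 and Cdh7 below it, and Cdh7, below the floor in that group, is drawn at its measured value.

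The wider superfamily was read from a list of protocadherins, giant cadherins and others. With HMGN2 OE, where 44.3% of all genes were called, 4 of 14 rose and 1 fell, with Pcdh19 at 2.60 ± 0.10 and the giant cadherin Fat4 at 2.36 ± 0.13 (limma adjusted p = 3.33e-12). With HMGN5 OE, where 41.5% of all genes were called, 6 rose and 2 fell, and Pcdh17 rose by at least 1.25 from below the floor. Pcdh7 rose by at least 1.51 from below the floor on a probe set that was dimmer on average. Its brightest probe set was below the floor in every SV40 group. Pcdh18 and Pcdh19 rose in both swaps too, by 1.25 to 1.38. In MIN6 with HMGN3a OE, where 34.1% of all genes were called, 3 of 15 rose and 6 fell, Pcdh17 by at least 1.72 on the log2 scale. Medians of this list lay between -0.01 and 0.15 in the 5 SV40 pools with more than 100 genes called.

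Across the 24 SV40 arrays the levels of Cdh11 were most like those of Tnc, which encodes the matrix protein tenascin C (Pearson r 0.985), the kinase gene Sgk1 (r 0.974) and the growth factor gene Pdgfc (r 0.967). Those of Cdh13 were most like Med16, a Mediator subunit (r 0.966), the kinase Taok1 (r 0.964) and Phkg2 (r 0.958). These are the 3 tested genes with the highest r for each, a description over 24 arrays that form only 8 groups. Between members, r over the same arrays was 0.633 for Cdh2 with Cdh11, -0.650 for Cdh2 with Cdh13 and -0.456 for Cdh11 with Cdh13. Over the 18 primary MEF arrays r was -0.114, -0.457 and 0.680 for these pairs in the same order.

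All members other than Cdh2, which lies on chromosome 18, are on mouse chromosome 8, in the order Cdh11, Cdh5, Cdh3, Cdh1 and Cdh13 in the RefSeq annotation. No other protein-coding gene lies between Cdh11 and Cdh5 or between Cdh3 and Cdh1, whereas 81 lie between Cdh5 and Cdh3 and 94 between Cdh1 and Cdh13. Cdh5 stayed below the floor where Cdh11 reached 8.65, and in the SV40 MEFs with HMGN5 OE Cdh3 was higher while Cdh1 was not read. Among the 20 tested genes nearest to Cdh11, a set looked at after seeing the data, 4 rose and 6 fell with HMGN2 OE, between -0.63 and 0.55, against 4.79 for Cdh11. With HMGN5 OE 4 rose and 6 fell, between -0.78 and 1.48. Of all genes 44.3% (HMGN2 OE) and 41.5% (HMGN5 OE) were called. In MIN6 with HMGN3a OE, where Cdh1 and Cdh3 were both called higher, 7 of the 20 tested genes nearest to Cdh1 rose and 1 fell. That set includes Cdh3, and its median was 0.15, beside 0.01 over all genes, of which 14.5% were called higher. Over the 9 MIN6 arrays r was 0.833 for Cdh1 with Cdh3. Shared control of neighbouring genes was not tested.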

How the data were processed

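Each array gave 1 value per probe set. The intensities were deposited by the authors as linear values after RMA, per the submitters' processing notes, with settings not given in the sources used here, and log2 was taken of them. In each cell type a probe set was kept if at least 1 of its group means reached the percentile 40 of group means, each gene was then represented by its brightest kept probe set, and limma 3.58.1 (R 4.3.3) fitted group means for all groups of the cell type with lmFit and eBayes. P-values are two-sided and adjusted by Benjamini-Hochberg over all 13674 (primary MEFs), 13469 (SV40 MEFs) or 13179 (MIN6) genes, or over 14454 genes for differences of effects between cell lines, with calls at an adjusted p below 0.05. A fold against a group below the floor is given as a bound against the floor. The number of arrays, 3 per group, limits the precision, and no 2 arrays held identical values.

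Named genes were all 6 members, the Hmgn genes, up to 4 called genes of each list per comparison with the largest change, and the 3 genes most like each widely ranging member. Members and lists were chosen with earlier results of these data known. The alternatives dropped the filter, tested probe sets singly, averaged a gene's probe sets, or used a further quantile normalisation, replicate number as a block, only the compared groups, the leaving out of each array, or covariates for Eif2s3y and for the Actb 3' minus 5' difference. Ddx3y, planned beside Eif2s3y, had no probe set given solely to it, so Eif2s3y alone was used, as decided once the data had been seen. The fit was tested on simulated data. Gene order came from RefSeq.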

Additional observations from a re-analysis of the deposited data

Results flagged for a closer look

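The effect of a construct differed between MIN6 and SV40 MEFs, by limma's test of the difference of effects, for 3 members with HMGN1 OE and 2 with HMGN3a OE. For Cdh2 the effect in MIN6 minus that in SV40 MEFs was 0.45 ± 0.14 with HMGN1 OE (adjusted p = 0.0187) and 0.43 ± 0.14 with HMGN3a OE (adjusted p = 0.0241), while the second Cdh2 probe set gave 0.00 and 0.25 (adjusted p = 0.996 and 0.179). The first of these calls was lost without MIN6 vector replicate 1 (0.37, adjusted p = 0.069), and the second without that array, MIN6 HMGN3a OE replicate 2, SV40 vector replicate 3 or SV40 HMGN3a OE replicate 2 or 3 (adjusted p of 0.0515 to 0.0898). For Cdh11 with HMGN1 OE the measured value was 0.91 ± 0.16 (adjusted p = 0.000193), but Cdh11 was below the floor in both MIN6 groups and in SV40 HMGN1 OE, so its size cannot be read, and its second probe set gave 0.07 (adjusted p = 0.874). For Cdh13 with HMGN1 OE it was -0.30 ± 0.10 (adjusted p = 0.0333), with Cdh13 below the floor in MIN6, and its other probe sets gave -0.40 and -0.27 (adjusted p = 0.115 and 0.318). The call for Cdh11 was kept without each array, and that for Cdh13 was lost without MIN6 HMGN1 OE replicate 1 or 3, MIN6 vector replicate 3, SV40 HMGN1 OE replicate 1 or 3 or SV40 vector replicate 3 (adjusted p of 0.0547 to 0.0812). For Cdh1 with HMGN3a OE it was 0.40 ± 0.13 (adjusted p = 0.0248), and Cdh1 was below the floor in SV40 MEFs. That call was lost without MIN6 vector replicate 1, MIN6 HMGN3a OE replicate 3, SV40 vector replicate 2 or SV40 HMGN3a OE replicate 1 (adjusted p of 0.0504 to 0.112).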

How the results depend on the processing

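On the brightest probe set or the mean of probe sets, no member's difference that was called changed sign under any alternative. A dimmer probe set could differ in sign, as for Cdh2 in HMGN1_N3swap against HMGN3a OE. The rises of Cdh11 with HMGN2 OE (3.45 to 4.93), HMGN5 OE (2.34 to 3.96), HMGN1_N2swap (1.00 to 2.04) and HMGN1_N3swap (1.29 to 2.30), the falls of Cdh13 in both swaps (-1.02 to -0.56 and -1.12 to -0.70) and the rise of Cdh1 in MIN6 with HMGN3a OE (0.42 to 0.51) were called under every alternative run for the brightest probe set or the mean of probe sets. With probe sets tested singly, the dimmer Cdh11 probe set was not called in the swaps (0.09 and 0.38), nor was Cdh13 1454015_a_at in HMGN1_N2swap (-0.26). The count of members called in HMGN3 WT against HMGN1 WT, 2, became 1 with the mean of a gene's probe sets, 0 with the Eif2s3y covariate and 1 to 2 without single arrays. In HMGN5 WT against HMGN1 WT, 2 became 0 with that covariate and 0 to 2 without single arrays. In MIN6 with HMGN3a OE, 2 became 1 with no filter, with every probe set on its own, with the replicate block and with only the compared groups, and 1 to 2 without single arrays. For the difference of HMGN3a effects, 2 became 1 with only the compared groups and 0 to 2 without single arrays. Genes called on the arrays labelled HMGN5 knock out, 10, became 6 with the replicate block, 5 with Eif2s3y, 0 with only the compared groups and 5 to 23 without single arrays. In the HMGN1 knock out 60 became 7 with only the compared groups and 18 to 62 without single arrays, and in the HMGN3 knock out 80 became 141 and 31 to 89. With Eif2s3y, 4306 genes called in HMGN3 WT against HMGN1 WT became 2221, and 1602 in HMGN5 WT against HMGN1 WT became 502 (904 to 1502 without single arrays). With HMGN3a OE in SV40 MEFs 4 genes became 2 with every probe set, quantile normalisation or the replicate block, 1 with the mean of probe sets, 0 with only the compared groups and 1 to 4 without single arrays. With the Actb covariate HMGN5SE OE gave 4 genes in place of 2, and HMGN1_N2swap against HMGN2 OE 3698 in place of 6762. With HMGN1 OE in MIN6 151 genes became 80 with every probe set and 39 to 91 without single arrays. Arrays were treated as unpaired, since no comparison had every same-number correlation over 0.1, a cut that cannot exclude pairing with 3 arrays a group. In some comparisons, among them HMGN1_N2swap against HMGN2 OE (correlations of 0.077 to 0.106), every array was most like the one with its own number. The cause was not tested for any of these changes, and 3 arrays a group limit what small differences can show.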
